A study of Mus musculus with 8 samples.

Results

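The comparison described here is that between receptor genotypes in dendritic cells that had received no TNFa. It uses 4 of the 8 arrays of the study: untreated and VD3-treated cells of VDRwt mice, and untreated and VD3-treated cells of VDRmut mice. Each VDRmut array was set against the VDRwt array of the same treatment, which gave 2 matched pairs, called here the untreated pair and the VD3 pair. VDRmut mice carry, per the labels, a vitamin D receptor from which the DNA-binding domain is deleted, and the labels call the VDRwt mice their controls and give no strain. Bone marrow came from male mice aged 9 weeks. Progenitors were expanded for 7 days with SCF, hyperIL-6, Flt3 ligand, IGF-1, dexamethasone and GM-CSF, and were then turned into dendritic cells with GM-CSF alone for a further 7 days. VD3 is 1,25-dihydroxyvitamin D3, the active hormone, given at 1e-06 M for 30 min, after which the protocol holds the cells for 4 h with or without TNFa. The deletion was in the animal from the start, so every stage of the culture took place with the altered receptor. All 4 conditions have 1 array each, the labels do not say whether the arrays of a genotype come from separate cultures, and genotype therefore coincides with the animal and possibly with the culture.

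The vitamin D receptor is a nuclear receptor that pairs with a retinoid X receptor on DNA when the hormone is bound, and Cyp24a1, the enzyme that breaks the hormone down, is its most responsive target. Myeloid progenitors can become granulocytes, monocytes, macrophages or dendritic cells, and a culture driven by GM-CSF can hold all of them in differing proportions. Developing neutrophils fill their granules in stages: myeloperoxidase and cathepsin G come first, lactoferrin, cathelicidin and neutrophilic granule protein later, and the calcium-binding proteins S100A8 and S100A9 fill the cytosol of the mature cell.

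Values are MAS5 signals, a linear intensity in arbitrary units that the authors put on a common scale, and each probe set also has a call of Present, Marginal or Absent. The trimmed mean signal was 200.1 on each of the 4 arrays. The share of probe sets called Present was 51.54% and 48% on the VDRwt untreated and VD3 arrays and 46.45% and 46.47% on the VDRmut ones. The 5′ to 3′ ratio of the actin control, a measure of RNA and labelling quality, was 0.444 on the VDRmut untreated array and 0.865, 0.889 and 0.86 on the other 3. Scan details are filled in for the VDRwt arrays, whose untreated and VD3 arrays share a scan day, and are empty for the VDRmut arrays, so scan day and genotype cannot be told apart. Checked against the labelled cell type, the markers Itgax, Cd74, H2-Ab1, Cst3, Csf2rb, Ccr7 and Cd83 were Present on all 4 arrays, whereas Flt3, Zbtb46 and Cd209a were Present on none of them. In bulk RNA a larger number of cells of a type and more of its RNA per cell cannot be told apart.

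The targeted gene was measured first. Vdr gave signals of 93.7 (untreated) and 185.7 (VD3) on the VDRwt arrays and 12.4 (untreated) and 67.2 (VD3) on the VDRmut arrays. Both VDRmut signals lay below both VDRwt signals, and the VDRmut untreated array was the only 1 of the 4 not called Present. The fitted log2 difference was -2.19 ± 0.48 (SE), with an adjusted p of 0.605 (limma). Whether the probe set lies inside or outside the deleted part is not given in the sources used here, so its signal checks the labels only in part. Cyp24a1 was Present on the VDRwt VD3 array alone, at 80.3, and was not called Present in the other 3 conditions, where it stood at 2.2 (VDRwt, untreated), 11.8 (VDRmut, untreated) and 28.2 (VDRmut, VD3). Of the 17 genes tested on the list of vitamin D response genes, Camp and Vdr differed at least 2-fold in both pairs, 4 genes were higher and 5 lower on VDRmut in both pairs (33.9% and 22.4% of all genes), and the median log2 difference was -0.07, beside 0.06 over all 7578 genes tested. Among the 20 genes nearest to Vdr in gene order (10 on each side), 6 were tested. Of these 0 differed at least 2-fold in both pairs, where 0.686% of all genes were higher and 0.185% lower by that size. So few genes are not enough for this count to tell anything. In both pairs 4 of the 6 were lower and 0 higher on VDRmut.

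A linear model over all 8 arrays (limma) compared the genotypes without TNFa over 12832 probe sets. It called 2 higher in VDRmut at an adjusted p under 0.05, which is 0.0156% of those tested, and 0 lower (0.0%). Both calls were granulocyte genes, Ngp and Ltf. Without adjustment 515 probe sets were higher and 528 lower at p under 0.05. With 2 arrays against 2, an exact permutation test of a single gene cannot give a two-sided p below 0.333. The results below other than these calls are therefore sizes without a test unless a p is given. A lack of overlap between genotypes, stated below for single genes, is a description that reaches no lower p than this. The share of all genes without overlap is not given here.

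By size, 84 probe sets were at least 2-fold higher on VDRmut in both matched pairs (0.655%) and 45 at least 2-fold lower (0.351%). After quantile normalization these counts became 61 and 62, so the balance of higher against lower depends on the scaling. A further 42 probe sets differed at least 2-fold in both pairs but in opposite directions, against 129 in the same direction. Counted by gene, with the brightest probe set of each, 52 genes were at least 2-fold higher (0.686%) and 14 lower (0.185%). Many were dim: 22 of the 52 were not Present on both VDRmut arrays, 5 of the 14 were not Present on both VDRwt arrays, and 23 of the 52 and 4 of the 14 stayed under a signal of 100 on each of the 4 arrays. Among the 5442 genes Present on all 4 arrays, 19 were at least 2-fold higher (0.349%) and 3 lower (0.0551%).

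The untreated pair differed more than the VD3 pair, above all downward. In the untreated pair 495 probe sets were at least 2-fold higher and 942 lower on VDRmut, and in the VD3 pair 420 were higher and 245 lower. The VDRmut array of the untreated pair is the one with the low actin ratio, and of the pairs with TNFa only the VD3+TNFa pair, whose VDRmut array has a ratio of 0.449, has a like count, at 690 lower. These pairs share no array, and 260 probe sets were at least 2-fold lower in both, 27.6% of the 942 and 37.7% of the 690, whereas the untreated and VD3 pairs shared 45, 4.78% of the 942 and 18.4% of the 245. The part of the actin ratio in these counts was not tested. Across the 12832 probe sets the correlation between the differences of the untreated and VD3 pairs was weak (Pearson's r 0.138, Spearman's rho 0.152), a description only, since probe sets are not replicates. For that reason the genes below are described by both pairs, and those that rest on the untreated pair are named as such.

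**Figure D1:**
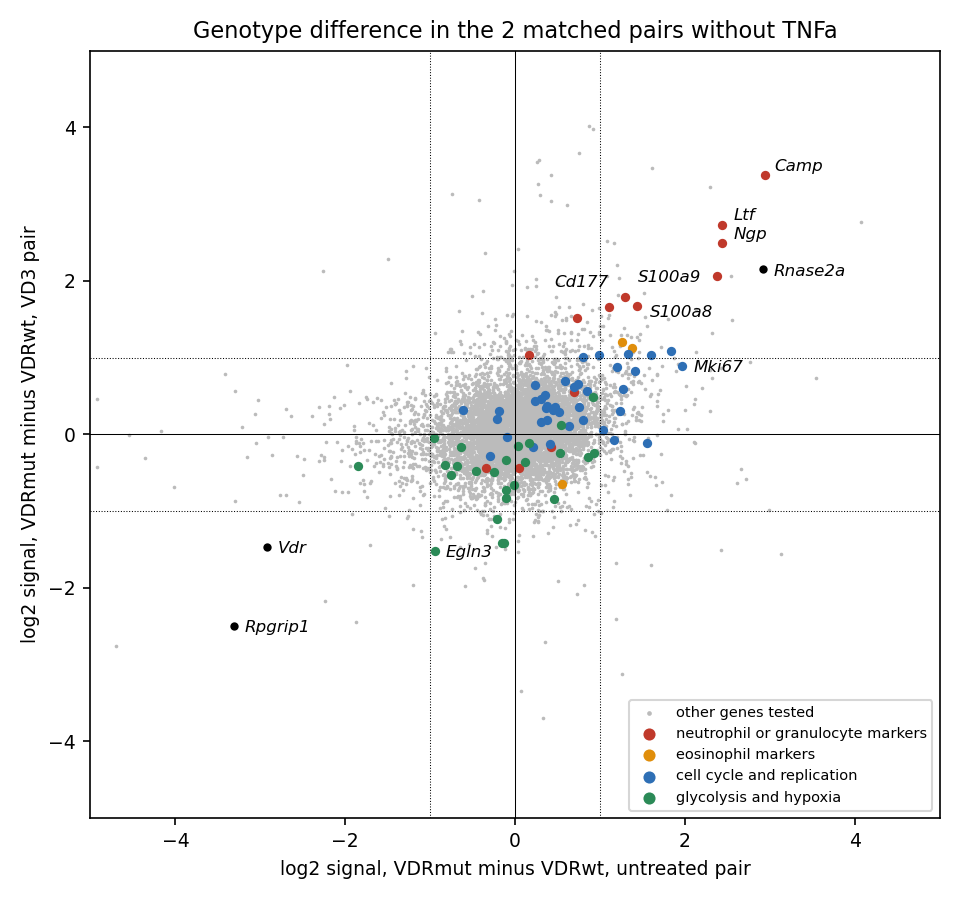
Genotype difference of each gene tested in the untreated pair (x axis, log2 signal of VDRmut minus VDRwt) and in the VD3 pair (y axis, the same scale). Each point is 1 gene, dotted lines mark a 2-fold difference, colours mark gene lists, and 1 gene lies outside the axes. Ngp, Ltf, Camp, S100a9 and Rnase2a stand more than 2 log2 units up in both pairs, while Vdr and Rpgrip1 stand at the lower left.

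Granulocyte genes made up the most marked difference. Ngp, which encodes neutrophilic granule protein, gave 864.4 (untreated) and 891 (VD3) on VDRwt arrays and 4703.7 and 4988.7 on VDRmut arrays. The genotypes did not overlap and the treatments within a genotype lay close together: Ngp was 5.44-fold higher in the untreated pair and 5.6-fold higher in the VD3 pair. Its fitted log2 difference was 2.46 ± 0.19 (SE), with an adjusted p of 0.029 (limma). Ltf, which encodes the iron-binding granule protein lactoferrin, gave 191.8 and 179.1 (Marginal) on VDRwt and 1043.6 and 1192.2 on VDRmut. It was 5.44-fold and 6.66-fold higher in the pairs, with a log2 difference of 2.59 ± 0.23 and an adjusted p of 0.0405 (limma). Both calls were lost without either untreated array, at a log2 difference of 2.49 for Ngp and 2.73 for Ltf. Without the VDRwt untreated array Ngp had an adjusted p of 0.144 and Ltf of 0.272, and without the VDRmut untreated array 0.188 and 0.401 (limma). The call of Ltf was also lost without the VDRmut VD3 array (adjusted p = 0.0533, limma). Over all alternatives the adjusted p of Ngp lay between 0.00669 and 0.363, and that of Ltf between 0.0156 and 0.654.

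Camp, which encodes the antimicrobial peptide cathelicidin, gave 44.1 and 24.7 on the VDRwt arrays, Absent on both, and 337.3 and 257.6 on the VDRmut arrays, Present on both. That is at least 8.93-fold higher, measured against the Absent signals themselves, with an adjusted p of 0.116 (limma). Camp is also on the vitamin D response list, since in human cells its counterpart is a direct target of the receptor. In these mouse cells it was higher where the receptor lacked its DNA-binding domain, and its VD3 signal was below the untreated signal in both genotypes. S100a9 gave 2278.5 and 2170.4 on VDRwt and 11837.4 and 9128.2 on VDRmut, 5.2-fold and 4.21-fold higher. S100a8, its partner, gave 3065.8 and 2048.3 against 8346.7 and 6498.2, 2.72-fold and 3.17-fold higher. Both were among the brighter genes of these cells, and neither overlapped between genotypes. Their adjusted p values were 0.32 and 0.419 (limma).

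The promoters of these genes are shown because their signals were higher together. They are the 250 bases before the RefSeq start of each gene (GRCm38.p6), 5′ to 3′ on the gene's own strand. Ngp lies at chr9:110419558-110419807 (+ strand), Ltf at chr9:111019042-111019291 (+), Camp at chr9:109849457-109849706 (- strand) and S100a9 at chr3:90695722-90695971 (-). Capitals mark matches on either strand to the C/EBP motif TTGCNNAA, bound by the family of factors that drive granulocyte genes.

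Ngp: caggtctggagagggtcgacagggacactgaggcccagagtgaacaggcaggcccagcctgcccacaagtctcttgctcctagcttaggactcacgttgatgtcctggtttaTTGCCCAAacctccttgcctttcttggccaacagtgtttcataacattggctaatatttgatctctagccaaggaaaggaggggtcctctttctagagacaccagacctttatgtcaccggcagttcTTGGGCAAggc
Ltf: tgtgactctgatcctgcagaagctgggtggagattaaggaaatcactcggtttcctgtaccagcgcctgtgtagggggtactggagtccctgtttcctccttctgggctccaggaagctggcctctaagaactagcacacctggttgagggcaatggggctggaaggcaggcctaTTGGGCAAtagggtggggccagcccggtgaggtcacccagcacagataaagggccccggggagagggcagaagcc
Camp: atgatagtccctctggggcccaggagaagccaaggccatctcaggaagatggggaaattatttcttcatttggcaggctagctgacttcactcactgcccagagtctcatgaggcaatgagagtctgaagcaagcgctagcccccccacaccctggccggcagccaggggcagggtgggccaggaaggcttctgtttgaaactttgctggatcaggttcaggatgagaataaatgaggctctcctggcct
S100a9: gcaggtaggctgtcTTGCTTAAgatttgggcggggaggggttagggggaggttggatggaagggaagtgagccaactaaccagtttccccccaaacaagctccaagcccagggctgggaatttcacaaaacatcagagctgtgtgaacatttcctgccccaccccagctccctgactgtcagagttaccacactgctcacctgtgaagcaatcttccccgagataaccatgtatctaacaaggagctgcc

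The motif occurs 2 times before Ngp, 1 time before Ltf, 1 time before S100a9 and 0 times in the Camp window, and 9.56% of the 32851 promoter windows of this length hold it. The vitamin D response element, searched as a direct repeat of its half-site spaced by 3 bases on both strands, had 0 matches in these 4 windows and is found in 0.0396% of all of them. A match of letters is not evidence of binding. Camp, Ngp and Ltf lie on the same stretch of chromosome 9. Between Camp and Ltf the annotation holds 43 further genes, of which 9 were tested, and 0 of those differed at least 2-fold in both pairs. Over all genes 0.686% were higher and 0.185% lower by that size, so 9 genes are too few for this count to tell anything. In both pairs 4 of the 9 were higher and 0 lower (33.9% and 22.4% of all genes). The log2 differences of the 9 ran from -0.58 to 0.87 with a median of 0.09. The interval was chosen after the values of the 3 genes were seen.

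The rest of the granulocyte markers were less uniform. Cd177, a surface glycoprotein of neutrophils, gave 99.2 and 74.5 on VDRwt and 243.3 and 257.5 on VDRmut. Ctsg, which encodes cathepsin G, gave 59.3 and 27.7 against 127.3 and 87.3, but was Present on the VDRmut untreated array only. Mpo, which encodes myeloperoxidase, gave 110 and 107.2, Absent on both VDRwt arrays, and 182.2 and 307.5 on VDRmut, at least 2.18-fold higher. The genotypes did not overlap for these 3 genes, and the Mpo difference was the larger in the VD3 pair. Lcn2, a granule protein that binds bacterial iron carriers, gave 961.1 and 775.9 against 1073.9 and 1594.6. Mmp8, the neutrophil collagenase, gave 2787 and 3261.1 against 3721 and 2919.7, and Csf3r, the G-CSF receptor, 253.5 and 323.4 against 200.9 and 238.1. For Mmp8 and Csf3r the genotypes overlapped or lay in the other order, so the granulocyte markers did not shift as 1 block. Elane, which encodes neutrophil elastase, was Present on none of the 4 arrays.

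In counts, 7 of the 13 granulocyte markers tested were at least 2-fold higher in both pairs, where 0.686% of all genes were. Of the 13, 10 were higher in both pairs and 1 lower (33.9% and 22.4% of all genes). The median log2 difference was 1.38 (1.1 in the untreated and 1.66 in the VD3 pair), beside 0.06 over all genes. The summed signal of the 15 markers on the array was 17872 and 19960 on VDRwt and 39493 and 35200 on VDRmut. The actin ratios were 0.865 and 0.444 in the untreated pair and 0.889 and 0.86 in the VD3 pair, and the median difference was above 1 in both. A marker Present on VDRmut arrays alone could enter the 13, as Camp did, which was Absent on each VDRwt array. Among genes Present on all 4 arrays, 8 markers of this list were tested. Of these, 4 were at least 2-fold higher in both pairs, where 0.349% of all genes Present on all 4 arrays were.

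**Figure D2:**
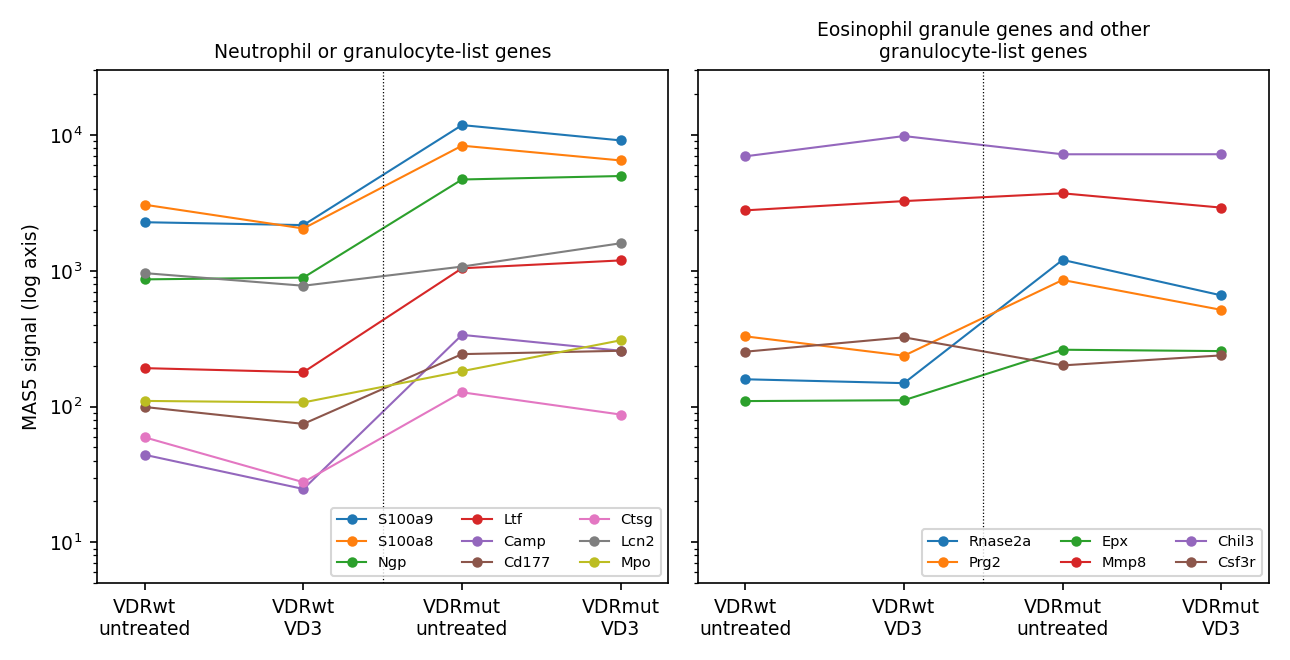
MAS5 signal (log axis) of granulocyte and eosinophil genes on the 4 arrays without TNFa, 1 line per gene, with VDRwt arrays left of the dotted line and VDRmut arrays right of it. Ngp, Ltf, Camp, S100a9 and S100a8 step up between genotypes and vary less within one, while Mmp8 and Chil3 overlap between genotypes and Csf3r is lower on VDRmut.

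Genes of eosinophil granules were higher as well. Rnase2a, an eosinophil-associated ribonuclease, gave 158.8 and 148.7 on VDRwt and 1203 and 659.2 on VDRmut, 7.58-fold and 4.43-fold higher, with a log2 difference of 2.53 ± 0.35 and an adjusted p of 0.32 (limma). Epx, eosinophil peroxidase, gave 109.7 and 111.3 against 262.1 and 256.1. Prg2, the major basic protein, gave 328.9 and 236.7 against 855.6 and 515.5. All 3 genes were Present on all 4 arrays without overlap between genotypes. Siglecf, a surface lectin of eosinophils, gave 260.1 and 237 against 381.3 and 151.2 and so differed in opposite directions in the pairs. The defining markers Prg3, Il5ra and Ccr3 were Present on none of the 4 arrays. Rnase2a is not on the marker list. Of the 3 listed eosinophil markers tested, 2 were at least 2-fold higher in both pairs, where 0.686% of all genes were. This count rests on 3 genes only. The 6 listed markers on the array summed to 717 and 642 on VDRwt and 1546 and 966 on VDRmut.

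Single genes of myeloid cells outside these lists, named for their size, were also higher. Ms4a3, a membrane protein of granulocyte and monocyte progenitors, gave 88.8 and 89.5 on VDRwt and 210.6 and 220 on VDRmut, 2.37-fold and 2.46-fold higher. Ifitm6, a member of the interferon-induced transmembrane family found in myeloid cells, gave 84.9 and 69.6 against 371.5 and 216.6, with a log2 difference of 1.88 ± 0.28 and an adjusted p of 0.32 (limma). Stfa3, a cysteine protease inhibitor, gave 40.7 and 27.5, Absent on both VDRwt arrays, against 202.5 and 68.9. Ceacam10, a cell adhesion molecule, gave 36.9 and 31.3 against 217.3 and 87.7. These 4 genes did not overlap between genotypes, and Stfa3 and Ceacam10, named after their values were seen, were higher in the untreated than in the VD3 pair. Sox4, a progenitor transcription factor, gave 116.5 and 53.7 against 219.3 and 130.4, while its other, dimmer probe set was lower in the untreated pair (log2 -0.86) and higher in the VD3 pair (3.23). Of the 6 progenitor markers tested 5 were higher on VDRmut in both pairs with a median of 0.45, but only 2 of the 6 were Present on at least 2 of the 4 arrays. All 4 mast cell and basophil markers tested were higher in both pairs with a median of 0.48, but they were dim: Mcpt8, a basophil protease, gave 99.7 and 112.7 against 232.6 and 161.8 and was Present on the VDRmut untreated array only. Of all genes, 33.9% were higher in both pairs.

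Genes of the cell division cycle were mostly higher. Of 38 tested, 29 were higher on VDRmut in both pairs and 2 lower, where 33.9% and 22.4% of all genes were. At least 2-fold higher in both pairs were 3 of the 38 (0.686% of all genes). The median log2 difference of the list was 0.46 (0.61 in the untreated and 0.35 in the VD3 pair). Mki67, the proliferation marker, gave 121.1 and 154.9 on VDRwt and 476 and 287.5 on VDRmut, 3.93-fold and 1.86-fold higher, with a log2 difference of 1.43 ± 0.36 and an adjusted p of 0.605 (limma). Mad2l1, of the spindle checkpoint, gave 118 and 130.4 against 357.4 and 267, and Ube2c, which marks mitotic cyclins for destruction, 96.1 and 148.4 against 242.2 and 306.5. The genotypes did not overlap for any of these 3. Cdk1, the mitotic kinase, gave 153.1 and 251.3 against 408 and 442.2, and Ccnb2, a mitotic cyclin, 91.7 and 96.5 against 211 and 178.2. Top2a, the topoisomerase of dividing cells, gave 229.4 and 268.8 against 552.9 and 405.5. Birc5, survivin, gave 116.1 and 144.8, Absent on both VDRwt arrays, against 415.6 and 307.3. Pcna, the DNA polymerase clamp, gave 1495.6 and 1491.1 against 2612.4 and 1686.3. For these genes too each VDRmut signal lay above each VDRwt signal. Outside the list, Anln, which acts in cytokinesis, gave 74.7 and 77.6 against 204.6 and 163.3. The group was not called gene by gene: 0 of the 38 passed the adjusted threshold and 10 had an unadjusted p under 0.05, all higher (limma). Of all 7578 genes, 346 were higher and 229 lower at this unadjusted p.

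Genes of dendritic cell maturation were mostly higher too, by less. Of 28 tested, 16 were higher on VDRmut in both pairs and 2 lower, where 33.9% and 22.4% of all genes were, with a median log2 difference of 0.29 (0.13 in the untreated and 0.33 in the VD3 pair). Stat4, the transcription factor of the interleukin-12 response, gave 97.7 and 89.4 on VDRwt and 270.3 and 221.3 on VDRmut, 2.77-fold and 2.48-fold higher, with a log2 difference of 1.39 ± 0.26 and an adjusted p of 0.504 (limma). Cd83, the surface marker of mature dendritic cells, gave 548.2 and 417.3 against 916.8 and 1035.7. Fscn1, fascin, which bundles actin in dendrites, gave 1506.7 and 1540.6 against 2866.4 and 2407.6 on its brightest probe set, but 2 of its 3 other probe sets were lower on VDRmut in the untreated pair (log2 -2.06 and -5.26) and higher in the VD3 pair (0.68 and 1.45). The costimulatory ligands Cd86 (280.9 and 255.6 against 530 and 335.6) and Cd80 (125.9 and 144.3 against 246.8 and 185.1) lay in the same order. No genotype overlap was seen for these 5 genes on their brightest probe sets. A second Cd80 probe set ran the other way, at 150.4 and 223.5 against 88.3 and 169.7, so the direction of Cd80 and Fscn1 is uncertain. Cd274, an inhibitory ligand, went the other way, with 1038.3 and 982.4 against 761.5 and 732.5. Rgs1, a regulator of chemokine receptor signalling from the immediate early list, gave 152 and 127.4 against 281.3 and 278.

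**Figure D3:**
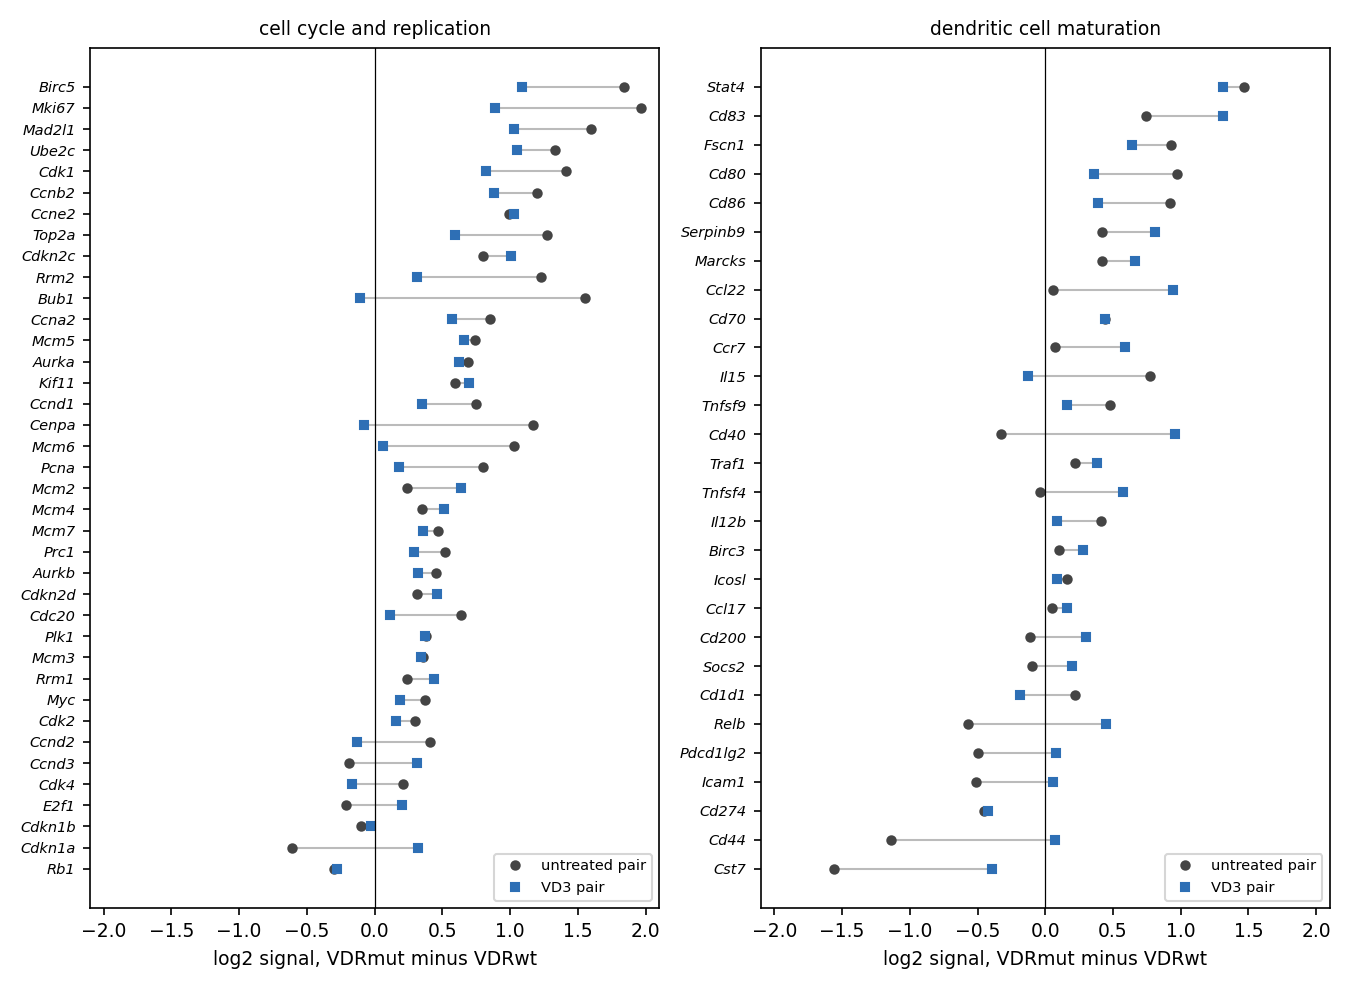
Log2 difference in signal (VDRmut minus VDRwt, x axis) of each tested gene of the cell cycle and maturation lists (y axis), with circles for the untreated pair, squares for the VD3 pair and a grey line joining them. In the cell cycle list 29 of 38 genes have both marks right of 0, and in the maturation list 16 of 28.

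Among genes lower on VDRmut, 3 were Present on all 4 arrays and at least 2-fold apart in both pairs. Sdc1, which encodes the heparan sulfate proteoglycan syndecan-1, gave 580.5 and 622.8 on VDRwt and 153.2 and 303.8 on VDRmut, 3.79-fold and 2.05-fold lower, with a log2 difference of -1.48 ± 0.5 and an adjusted p of 0.605 (limma). Its 3 other probe sets tested gave log2 differences of -2.05, -1.43 and -2.61. Ddhd1, a phospholipase, gave 257.3 and 228.7 against 111.8 and 97.6, and Adssl1, an enzyme of adenine nucleotide synthesis, 466.7 and 398.3 against 217.5 and 157.8. The genotypes did not overlap for any of the 3.

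Some genes were Present on both VDRwt arrays and Absent on both VDRmut arrays. Rpgrip1, which encodes a ciliary protein of photoreceptors, gave 532.1 and 467.9 on VDRwt and 53.6 and 82.7 on VDRmut, at least 7.49-fold lower. Msl2, of a chromatin-modifying complex, gave 207.2 and 204.9 against 56.5 and 37.7, at least 4.46-fold lower, but its 2 other probe sets gave log2 differences of -0.04 and -0.07. Zbtb7b, a transcription factor of lymphocyte lineages, gave 274.5 and 312.9 against 83.7 and 115.3, at least 2.98-fold lower. Their adjusted p values were 0.584, 0.504 and 0.45 (limma). The Rpgrip1 difference was of like size in the VD3+TNFa pair (log2 -3.88) and smaller in the TNFa pair (-0.88). Over all probe sets 256 had this pattern of calls (2.0%), with a median log2 difference of only -0.35, and 60 were Present on both VDRmut and Absent on both VDRwt arrays (0.468%), with a median of 0.66. Only 12 of the 256 and 5 of the 60 were also at least 2-fold apart in both pairs. Tomm34, a mitochondrial import factor, had this pattern with signals of the same level: 486.9 and 533.2 on VDRwt, called Present, and 488.1 and 643.8 on VDRmut, called Absent.

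Genes of glycolysis and the hypoxia response were mostly lower. Of 25 tested, 16 were lower on VDRmut in both pairs, 2 were higher and 0 differed at least 2-fold in both, with a median log2 difference of -0.4 (-0.11 in the untreated and -0.41 in the VD3 pair). Over all genes 22.4% were lower in both pairs. Egln3, an oxygen-sensing prolyl hydroxylase, gave 1738.4 and 1877.2 on VDRwt and 905 and 656.7 on VDRmut, with a log2 difference of -1.23 ± 0.43 and an adjusted p of 0.605 (limma), and its second probe set, at 898.5 and 1007 against 125.5 and 285.4, differed more. Hk1, a hexokinase that starts glycolysis, gave 903.4 and 895 against 536 and 618.9, and Pkm, pyruvate kinase, which ends it, 4585.7 and 5348 against 2868.6 and 4017.6. A dimmer Hk1 probe set gave 275.1 and 316.9 against 127.7 and 344.8, with overlap between genotypes. Slc16a3, a lactate exporter, gave 1518.1 and 1843.9 against 422 and 1387.3, so that most of its difference lay in the untreated pair. Vegfa, the vascular growth factor, did the reverse on its brightest probe set, with 145.5 and 331.9 against 131.1 and 124.3. Another Vegfa probe set was lower in both pairs, at 166.7 and 346.3 against 69.5 and 108.4, so the place of its difference is uncertain. The glucose transporter Slc2a3 was 1 of the 2 that were higher, at 93.3 and 105.8 against 176 and 147.8.

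Oxidative phosphorylation genes leaned upward: of 36 tested, 20 were higher in both pairs (33.9% of all genes), 2 lower and 0 at least 2-fold apart, with medians of 0.4 in the untreated pair and 0.09 in the VD3 pair. Ndufb5, a subunit of complex I, gave 1012.7 and 831.5 on VDRwt and 1518.8 and 1332.1 on VDRmut. Cytosolic ribosomal protein genes had a median of 0.4 in the untreated pair and 0 in the VD3 pair, and 18 of 40 were higher in both (33.9% of all genes). For these groups the untreated pair, with the low actin ratio, carried the shift, and the part of that ratio in it was not tested.

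Complement and macrophage genes were modestly lower. Of 14 Fc receptor and complement genes tested 10 were lower on VDRmut in both pairs and 1 higher (22.4% and 33.9% of all genes). The median log2 difference of the 14 was -0.26. C5ar1, the receptor for complement C5a, gave 237 and 242.6 on VDRwt and 67.1 and 155.6 on VDRmut. C1qc and C1qa, chains of complement C1q, gave 465 and 477.9 against 185.2 and 306.9, and 337.6 and 398.7 against 142.3 and 297.1. C1qb, the third chain, gave 731.9 and 831.9 against 598.2 and 721.3. On these probe sets the VDRmut untreated array was the lowest and both VDRwt arrays were the highest. The other C1qb probe sets, at 504.9 and 386.9 against 566 and 323.8 and at 454.6 and 641.4 against 449 and 375.5, had the VDRmut VD3 array lowest, and the first overlapped between genotypes. Of 9 macrophage markers tested 6 were lower and 2 higher in both pairs, with a median of -0.34. Adgre1, the macrophage marker F4/80, was among the higher, at 1536 and 1591.2 against 1861.5 and 1712.9, and the 10 markers on the array summed to 14378 and 15582 on VDRwt and 13815 and 13022 on VDRmut.

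The markers of the dendritic cells themselves went in both directions. Itgax, which encodes CD11c, gave 4712.1 and 5138.3 on VDRwt and 3356.5 and 4035.1 on VDRmut, and H2-Ab1, a class II chain, 4782.3 and 5213.1 against 3552.2 and 3902. Both were lower on each VDRmut array, with log2 differences of -0.42 ± 0.19 and -0.42 ± 0.22 (SE). Their adjusted p values were 0.61 and 0.621 (limma). Other H2-Ab1 probe sets gave log2 differences of -0.61 and -0.75. Cd83, also on the marker list, was 1.67-fold and 2.48-fold higher in the pairs. The class II chain H2-Eb1 gave 7074.7 and 7194.5 against 6490.9 and 6555.2. Of 10 dendritic cell markers tested 4 were higher and 5 lower in both pairs, and of 14 class II presentation genes 1 was higher and 5 lower. The median was -0.1 in either list. In both pairs 33.9% of all genes were higher and 22.4% lower. Summed over the 10 dendritic cell markers, the signal was 34600 and 45594 on VDRwt and 32539 and 37805 on VDRmut, so the genotypes overlapped. Markers of other lineages were detected in part. T cell genes Cd3d, Cd3e and Cd3g and B cell genes Cd79a and Cd79b were Present on none of the 4 arrays. The same held for 7 of 11 T cell and 7 of 11 B cell markers on the array. It held for only 6 of 12 stromal and 3 of 8 megakaryocyte or platelet markers. The stromal markers summed to 4114 and 4696 on VDRwt and 4499 and 3066 on VDRmut.

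**Figure D4:**
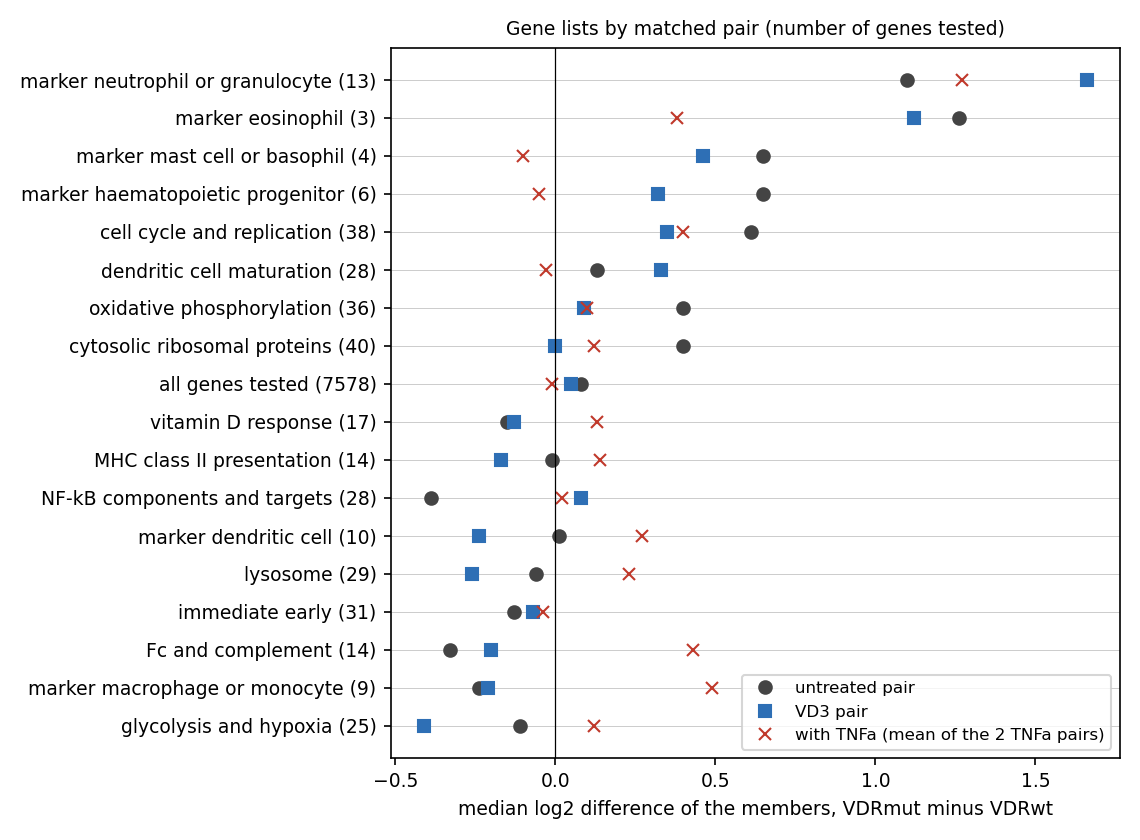
Median log2 difference (VDRmut minus VDRwt, x axis) of the members of gene lists, and of all genes tested (y axis, number of genes tested in brackets), with circles for the untreated pair, squares for the VD3 pair and crosses for the fitted difference with TNFa. Granulocyte markers lie above 1 in both pairs. Glycolysis and hypoxia genes lie at -0.11 and -0.41, and dendritic cell markers at 0.01 and -0.24.

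Single genes of transcription and adhesion were apart mainly in the untreated pair. Jund, a subunit of the AP-1 factor, gave 2361.6 and 2169.4 on VDRwt and 756.8 and 1675.3 on VDRmut, and Klf2, a factor of quiescent leukocytes, 170.5 and 217 against 60.7 and 161.5. Itga5, the fibronectin receptor chain, gave 373.3 and 552.2 against 111.2 and 313.5. In these 3 genes the VDRmut untreated array was the lowest by far and the VDRmut VD3 array lay closer to VDRwt. Of 31 immediate early genes tested 14 were lower and 7 higher in both pairs. The medians of this list were -0.13 in the untreated and -0.07 in the VD3 pair. Of 20 integrin and adhesion genes 7 were lower and 0 higher, with medians of -0.08 and -0.14. In both pairs 22.4% of all genes were lower and 33.9% higher. The 3 genes were named for their size.

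The last question is whether the genotype difference seen without TNFa was also there with it. The TNFa pairs are other arrays, and on both TNFa arrays without VD3 the control probe set for the 5′ end of 18S RNA read 9028.2 (VDRwt) and 6847 (VDRmut), against at most 224 on the other arrays. The test of the difference between the 2 genotype contrasts called 0 probe sets (0.0%), with 301 higher and 318 lower at p under 0.05 before adjustment and a smallest adjusted p of 0.874 (limma). With TNFa 0 probe sets were called for genotype (limma), with 281 higher and 272 lower at p under 0.05 before adjustment. Of the 52 genes at least 2-fold higher without TNFa, 22 were also higher in both TNFa pairs (42.3%, against 24.5% of all genes), and of the 14 lower genes 4 were also lower in both (28.6%, against 26.0%). The median log2 difference of the 52 was 1.45 without and 0.29 with TNFa, and that of the 14 was -1.53 and -0.31. These genes were picked for their size without TNFa, so the medians are given as values and not as a comparison.

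With TNFa, 11 of the 13 granulocyte markers tested were higher on VDRmut in both pairs and 0 lower in both, where 24.5% of all genes were higher. Ngp gave 350.6 (TNFa) and 725.5 (VD3+TNFa) on VDRwt and 1531.6 and 2782.1 on VDRmut, a log2 difference of 2.03 ± 0.19 with an adjusted p of 0.114 (limma). Ltf gave 51.8 and 168.2 against 228.5 and 581.5, and S100a9 758.5 and 3457.7 against 4569.2 and 7945.1. Each VDRmut signal of these 3 genes lay above each VDRwt signal. Mpo overlapped, at 166.3 and 119 against 175.9 and 154.3, and Ctsg, at 86.5 and 49.4 against 76.5 and 85.7, was lower on VDRmut in the TNFa pair. Rnase2a gave 5.7 and 120.9 against 29.5 and 1456.6. It was far lower on both TNFa arrays without VD3 and Absent on both, so that pair does not show a measured difference. In the VD3+TNFa pair Rnase2a was Present on both arrays and higher on VDRmut. The granulocyte markers had a median log2 difference of 1.27 with TNFa, beside 1.38 without. Cell cycle genes had 0.4 beside 0.46.

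Other genes were closer together with TNFa by size, though no test of the difference passed. The single genes here were named from their differences without TNFa, and a smaller size on other arrays can follow from that choice. Their sizes are therefore given as values and not as a comparison, and the unadjusted p below comes after that choice. Stat4 gave 1232.1 (TNFa) and 209.2 (VD3+TNFa) on VDRwt and 956.9 and 281.4 on VDRmut, a log2 difference of 0.03 ± 0.26 against 1.39 without TNFa, and the difference between them, 1.36 ± 0.37, had an unadjusted p of 0.00735 and an adjusted p of 0.874 (limma). Ms4a3 had 0.16 with against 1.27 without TNFa, Rgs1 -0.4 against 1.01, and Ddhd1 -0.05 against -1.22. Zbtb7b had 0.29 with against -1.58 without TNFa, but it was Absent on every array with TNFa, so no turn of the sign was measured. Among the lists, glycolysis and hypoxia genes had a median of 0.12 with TNFa, beside -0.4 without, and Fc receptor and complement genes had 0.43 beside -0.26, a median of the other sign and of larger size.

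**Figure D5:**
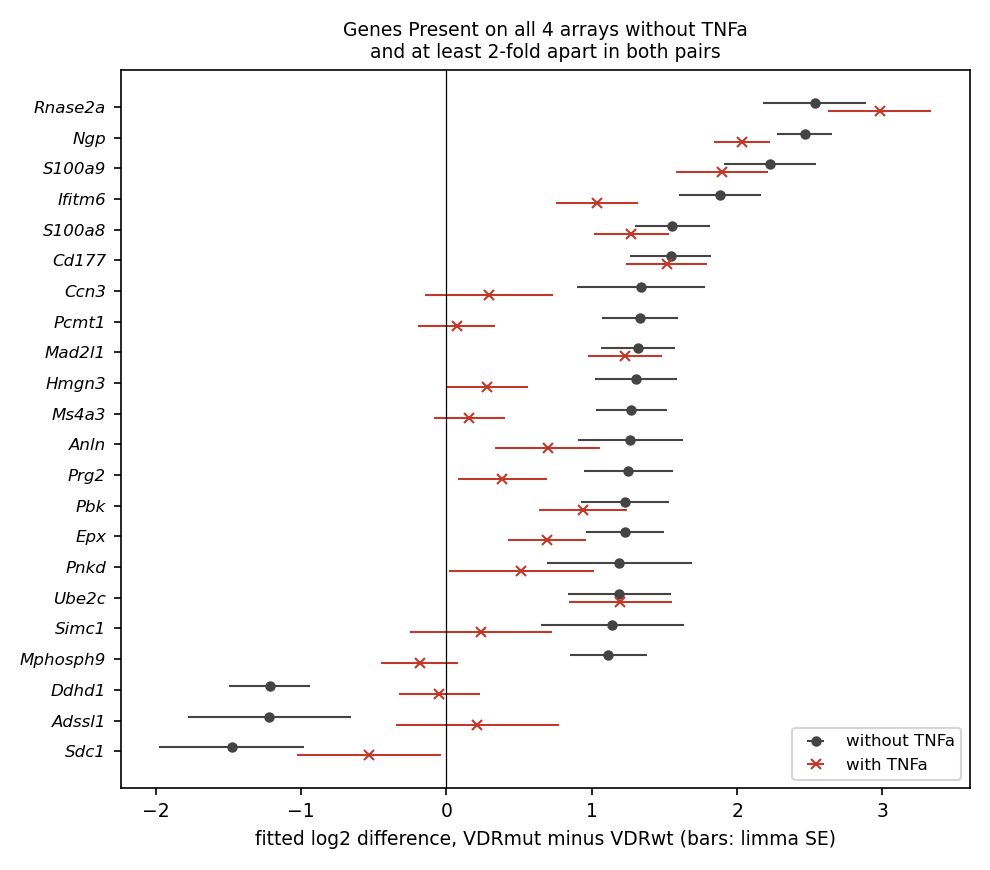
Fitted log2 difference between genotypes (VDRmut minus VDRwt, x axis) without TNFa (circles) and with TNFa (crosses) for the 22 genes Present on all 4 arrays without TNFa and at least 2-fold apart in both pairs (y axis), with bars for the limma standard error. Ngp, Rnase2a and S100a9 lie right of 1 under both conditions, whereas Ms4a3, Pcmt1 and Ddhd1 lie near 0 with TNFa. Rnase2a was Absent on both arrays of the TNFa pair.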

How the data were processed

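RNA of dendritic cells was hybridised to 8 Affymetrix MOE430A arrays, 1 per condition. For each of 22690 probe sets the authors deposited a signal intensity on a linear scale with its detection call, per the file headers. MAS5 is the tool named in the submitters' processing notes. The authors' scaling left a 2% trimmed mean of 200.1 on each array. A deposited series matrix holds the same intensities to within 0.05 and served as an alternative. Genome build and annotation of the array design are not given in the sources used here. The number of arrays limits the precision.

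Groups were taken from the sample titles. Signals were put on the log2 scale (3 signals listed at 0 raised to 0.1), 64 control probe sets were left out, and the 12832 probe sets Present on at least 2 of the 8 arrays were tested. limma 3.58.1 in R 4.3.3 fitted a term for each treatment and a genotype difference without and with TNFa (2 residual degrees of freedom, trend on), with Benjamini-Hochberg adjustment over all probe sets. Errors after ± are its standard errors. No condition has a replicate, so the spread behind these errors and p-values is the disagreement between the matched pairs, without TNFa and with it. It holds any VD3 effect that differs between genotypes together with noise, and is not a spread between replicates. Nothing says that the arrays stem from separate cultures, so the noise may be technical. Genes were named from the platform annotation (20393 probe sets with 1 symbol, 691 with several, 1606 with none), of which 20364 matched RefSeq, and the brightest probe set stood for each gene (of 35 other probe sets of 24 genes named, 24 had its direction in both pairs). Where a gene was Absent on both arrays of the dimmer genotype, the fold is given as at least N-fold, taken against its own signal or the lowest Present signal of the array, whichever was higher, and is an estimate.

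The comparison, the 44 gene lists and the naming rule were chosen with earlier results of these data known. The rule named the vitamin D response genes, the calls, the 15 genes each way with the largest smaller difference of both pairs among those Present on all 4 arrays, 8 each way with switched calls, the 5 smallest p-values each way, up to 4 members of each list and the neighbours of Vdr. Outside it, members of the lists were named after their values were seen (Adgre1, Birc5, Ccnb2, Cd80, Cd86, Cdk1, Chil3, Csf3r, Ctsg, Jund, Lcn2, Mcpt8, Mmp8, Pcna, Pkm, Siglecf, Slc16a3, Top2a and Vegfa, with Ceacam10 and Stfa3 from no list), beside the dendritic cell markers. On simulated data for genotype without TNFa over 12832 probe sets, the fit found 0% of simulated differences of log2 size 1, 34% of size 2 and 64% of size 4, and called 0 unchanged probe sets.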

Additional observations from a re-analysis of the deposited data

How the results depend on the processing

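The 2 calls higher in VDRmut became 5 when the 4 arrays without TNFa were fitted alone with VD3 as a term (Camp, Ltf, Ngp, Rnase2a and S100a9, with adjusted p from 0.0156 to 0.023, and 1 lower call, Rpgrip1, at 0.0162), 1 with quantile normalization and 1 among probe sets Present on all 4 arrays (Ngp), and 0 with genotype as the only term, without a filter on Present calls, with signals raised to 20 or to 50, or without a trend (with 326 to 965 higher at an unadjusted p under 0.05 in limma). Leaving out 1 array gave 0 to 3 higher and 0 to 35 lower calls: 35 lower without the VDRwt VD3 array and 34 without the VDRmut VD3 array, that is, from the untreated pair alone. The difference between the contrasts without and with TNFa gave 0 calls under each alternative run. The count of probe sets at least 2-fold higher (84) and lower (45) was 387 and 245 at 1.5-fold, 14 and 11 at 3-fold, 694 and 335 without a filter, 48 and 30 with Present on at least 2 of the 4 arrays, 28 and 13 with Present on all 4, 29 and 22 with a floor of 50 and 53 and 31 with a floor of 20. Leaving out 1 array leaves a single pair, which gave 420 to 495 higher and 245 to 942 lower. With Marginal calls counted as Present, 94 probe sets in place of 60 switched from Absent to Present on VDRmut. Cyp24a1 reversed with a floor of 50 (-0.34) or 20 (-0.75) and from -1.51 to 2.42 when an array was left out; other genes that turn with 1 pair left out are Cst3 (-0.14 to 0.2), Mmp8 (-0.16 to 0.42), Chil3 (-0.44 to 0.05) and Siglecf (-0.65 to 0.55). Among the list counts, added after seeing the data, the granulocyte count ran from 4 to 9 and that of oxidative phosphorylation from 19 to 31. The cause of these changes was not tested. The matching by treatment is a term of the reported fit and of the fit with VD3 as a term, and no further block by replicate number could be made, since each condition has 1 array. Cut-offs on a detection p were not run, since the tables used here hold only calls. Signals near background limit the dim genes most: 23 of the 52 higher genes stayed under 100.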

Other observations

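Several gene groups not described above held genes that were apart in both pairs. Single enzymes of cholesterol synthesis, named for their size, were higher on VDRmut: Cyp51, a demethylase of the pathway, gave 161.3 (untreated) and 108.5 (VD3) on VDRwt and 278.9 and 208.1 on VDRmut, Lss, which forms lanosterol, 108.7 and 96.6 against 211 and 146.7, and Idi1, an isomerase of the early pathway, 347.2 and 288.1 against 519.9 and 481.5. Each VDRmut signal of these 3 genes lay above each VDRwt signal on the brightest probe set, but a dimmer Cyp51 probe set was lower in the VD3 pair (log2 -0.3). Of the 31 genes tested on the list of cholesterol and fatty acid genes, 14 were higher and 6 lower in both pairs, with a median log2 difference of 0.1, close to the 0.06 of all genes. Of 33 interferon-stimulated genes tested, 11 were higher and 10 lower in both pairs, where 33.9% and 22.4% of all genes were. Irf7, the interferon regulatory factor, gave 919.8 and 865.6 against 395.9 and 592.8, whereas Ifi47, an interferon-inducible GTPase, gave 278.8 and 250.1 against 394.8 and 365.3. None of these genes passed the adjusted threshold, with adjusted p values from 0.607 to 0.615 (limma).

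Arg1, the arginase of alternatively activated macrophages, had a lower signal on VDRmut in all 4 matched pairs of the study. It gave 272.2, 213.1, 27.5 and 484.2 on the VDRwt untreated, VD3, TNFa and VD3+TNFa arrays and 148.8, 83.1, 9.4 and 85.3 on the VDRmut arrays in the same order, with a log2 difference without TNFa of -1.11 ± 0.33 (SE) and an adjusted p of 0.605 (limma). Arg1 was called Present for both genotypes in the untreated pair alone. In the VD3 and VD3+TNFa pairs it was Present for VDRwt and Absent for VDRmut. Both signals of the TNFa pair were Absent, so that pair does not show a measured difference. F13a1, a clotting factor subunit made by macrophages, gave 2206.6 and 2060 against 1217.6 and 955.3 without TNFa. Thbs1, which encodes the matrix protein thrombospondin-1, gave 4073.5 and 4996.7 against 1867.8 and 2626, and Cebpb, a C/EBP factor of myeloid cells, 2580.7 and 3164.5 against 1030.8 and 1912.3. The genotypes did not overlap for these 3 genes without TNFa, but with TNFa alone all 3 stood higher on VDRmut, at 846.5 against 270.8, 1228.1 against 566.1 and 1956.9 against 995.5.

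Hmgn3, a nucleosome-binding protein, gave 111.8 and 82.5 on VDRwt and 278.3 and 201.9 on VDRmut, and its other probe set tested gave 40.3 and 26.8 against 121.1 and 71.3. Ccn3, a secreted matricellular protein, gave 270.9 and 238.7 against 743.6 and 558.3. On chromosome 15, which carries Vdr, 277 genes were tested. Of them 2 were at least 2-fold higher in both pairs (Ccn3 and Lrrc6) and 3 lower (Fbxo32, Pim3 and Vdr). Over all genes the shares were 0.686% and 0.185%. Vdr is the targeted gene itself, and Fbxo32 and Pim3 were Absent on all 4 arrays. Lrrc6 was Present on the VDRmut VD3 array only, at 16.8. Pim3 nonetheless read 231.9 and 227.9 on VDRwt against 108 and 94.7 on VDRmut, and its other probe sets were also lower in both pairs. The shares over all genes include Absent genes as well. An excess of genes on this chromosome was not tested, and these small counts do not decide it.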
